A study of Mus musculus with 7 samples.

Results

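The genes described here are 46 components of the TGF-beta and BMP pathways, taken by name from a fixed list of ligands, receptors, SMADs, ubiquitin ligases, latent binding proteins, antagonists and targets, out of 55401 genes in the count table. All 46 were found once each, and 45 of them were among the 16429 genes that passed the filter on low counts, which asked for more than 1 CPM (counts scaled to a common library total) in at least 2 samples. The missing one was Gdf5, a ligand of joint formation, whose level was 0.796 ± 0.229 CPM (SD, n = 4) across the WT samples and 0.513 ± 0.0911 CPM (SD, n = 3) across the Trpc1-/- samples.

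RNA came from knee cartilage and subchondral bone of male C57BL/6J mice 2 weeks after destabilization of the medial meniscus (DMM), a surgery that loosens the joint and leads to osteoarthritis, done at 10 weeks of age. There were 4 WT samples and 3 Trpc1-/- samples, each pooled from 2 to 3 mice, and every group had undergone DMM. The Trpc1-/- mice lack exon 8 of Trpc1, which encodes a calcium-permeable channel, in every cell, so the deletion is not limited to the joint. The comparison asks how the pathway is expressed after joint injury when the channel is missing. With no sham or unoperated sample, a genotype difference present before surgery cannot be told apart from one that follows the injury. Total counts were 52142451, 99831099, 116815517 and 75284143 in WT replicates 1 to 4 and 118254070, 94972137 and 106517535 in Trpc1-/- replicates 1 to 3. A count of 3 corresponded to between 0.0244 and 0.0632 CPM in these libraries, a floor that covers counting error alone.

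TGF-beta ligands are secreted with a latency peptide and held in the matrix by latent binding proteins until they are activated. TGF-beta then signals through type I and type II receptor kinases to SMAD2 and SMAD3, and BMPs signal to SMAD1, SMAD5 and SMAD9, with SMAD4 as the shared partner and SMAD6 and SMAD7 as inhibitors. In the joint, TGF-beta helps to hold articular chondrocytes in their resting state, whereas BMPs drive cartilage and bone formation.

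Trpc1 itself, on chr9:95705082-95750375 (GRCm38), was counted at 4.83, 4.55, 4.77 and 4.33 CPM in the WT samples and at 3.35, 3.79 and 3.04 CPM in the Trpc1-/- samples. All 3 Trpc1-/- samples lay below all 4 WT samples, in the direction of the labels, although the counts cover the whole gene and cannot separate the deleted exon. The fitted log2 fold change was -0.44 (SE 0.13, adjusted P = 0.407 by edgeR).

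WT replicate 1 stood apart before any gene of the pathway was compared. Its expression profile correlated with those of the other 6 samples at 0.960 on average, against 0.983 to 0.987 for each other sample. It had the lowest total count, the lowest summed neutrophil markers and the highest summed muscle markers. Fold changes of several members are therefore given both with and without it. Fold changes of the other pathway genes and of the marker lists are given with all samples alone.

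No pathway member passed the test across all genes. With edgeR, 0 of the 45 tested members, and 0% of all 16429 genes, had an adjusted P under 0.05. DESeq2 called 294 genes (1.79% of those with an adjusted P) and limma-voom 1, and neither called a member. The members nevertheless leaned to one side. Without adjustment, 13 of the 45 were under 0.05 in edgeR and lower in Trpc1-/-, against 5.49% of all genes, and 0 were under 0.05 and higher, against 4.51% of all genes. The fitted log2 fold change was below 0 for 41 members and above 0 for 4, whereas 51.9% of all genes were below 0. Its median was -0.16 over the members and -0.01 over all genes tested. The sample names in the count table carry numbers of a lower and a higher series, the higher held by WT replicates 3 and 4 alone. What these numbers stand for is not stated. Within the lower series the members' median was -0.285, and with the series as a covariate it was -0.284. In each of these fits 15 members were under 0.05 before adjustment and lower, against 8.47% and 10.3% of all genes, and 1, Grem1, was higher. Over both directions, 2156 of 16203 and 2899 of 16429 genes were under 0.05 in these fits. For 9 members every Trpc1-/- sample lay below every WT sample, as for 6.42% of all genes, and for 0 members every Trpc1-/- sample lay above, as for 7.15% of all genes. The lean was not particular to the members. In the same fit 4 of 14 chondrocyte markers were under 0.05 before adjustment and lower. So were 2 of 10 osteoblast and osteocyte and 2 of 9 synovial fibroblast and tendon markers. In these 3 lists 0 were under 0.05 and higher, whereas 11 of 16 erythroid markers were.

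**Figure D1:**
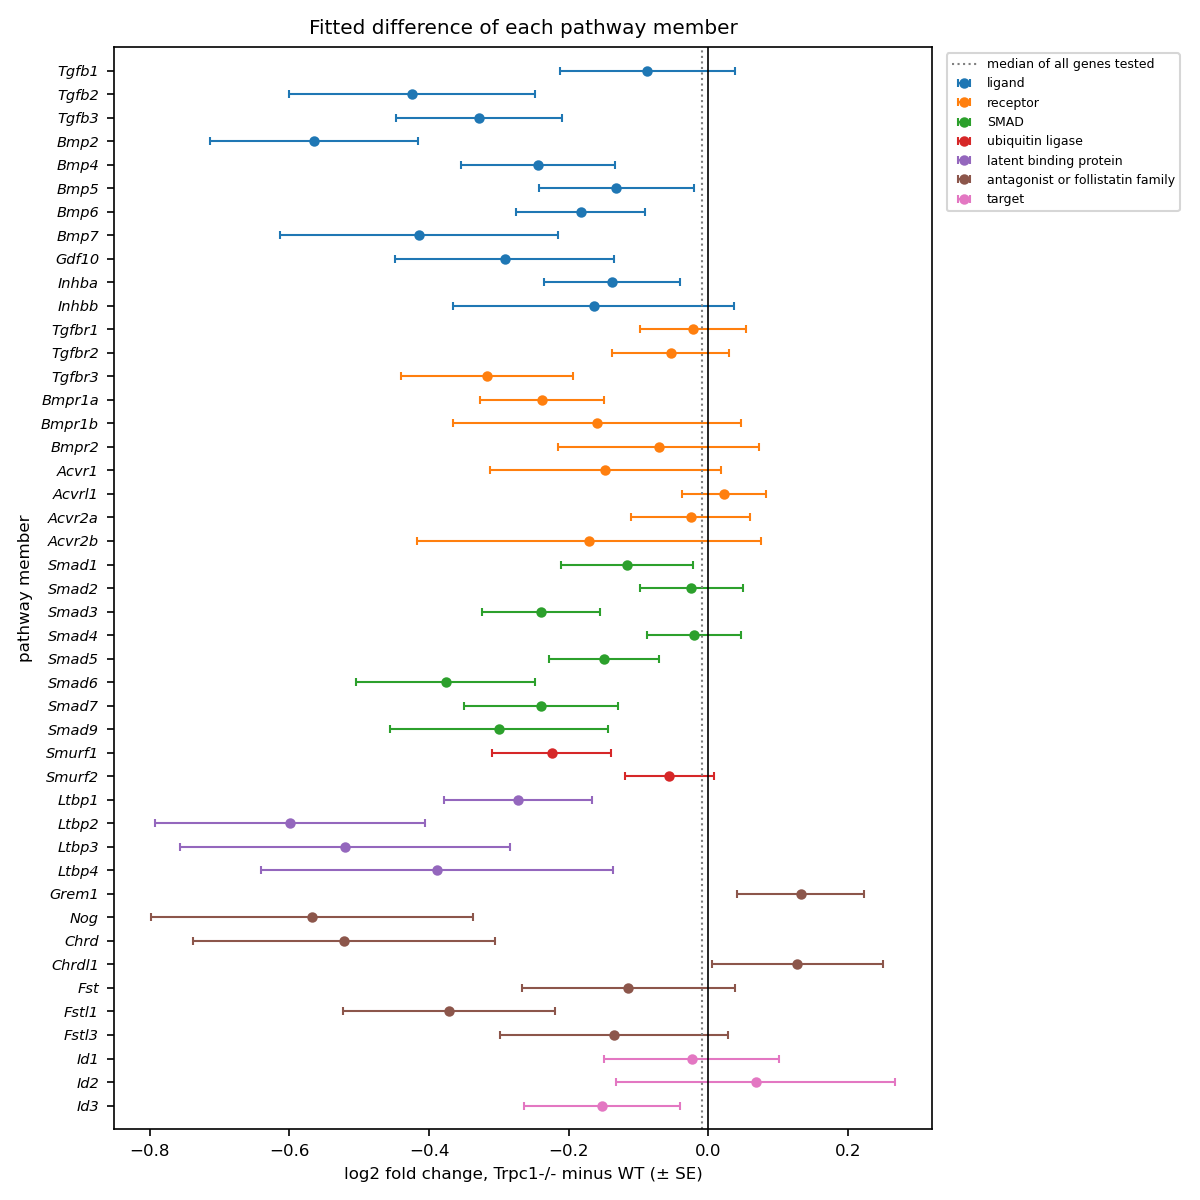
Fitted log2 fold change (Trpc1-/- minus WT, horizontal axis) of the 45 tested members, with bars of 1 SE and colours for the role of each gene. Most points lie left of 0, the latent binding proteins furthest as a class, and the 4 to the right are Grem1, Chrdl1, Id2 and Acvrl1, of which Acvrl1 and Id2 turn below 0 when scaled by library size alone, a scaling that moves the median of all genes from -0.01 to -0.07.

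The lean of the members differed among samples of 1 group. Relative to the WT mean on a log2 scale, the median member stood at 0.13 in WT replicate 1 and at -0.01, -0.04 and -0.07 in WT replicates 2 to 4. It stood at -0.24, -0.11 and -0.18 in Trpc1-/- replicates 1 to 3, so all 3 were below all 4 WT samples. WT replicate 1 had the highest level of all 7 samples for 28 of the 45 members. Among the Trpc1-/- samples, replicate 2 was the highest for 29 members and replicate 1 the lowest for 25. Without WT replicate 1, the median log2 fold change over the members was -0.15, with 37 members below 0. Of the 45 members, 13 were then under 0.05 before adjustment and lower, against 8.39% of all genes in the same fit. That count was 5 without WT replicate 2 (3.29% of all genes), 3 without Trpc1-/- replicate 1 (2.85%) and 2 without Trpc1-/- replicate 3 (2.23%). Leaving out 1 sample turned the direction of 12 of the 45 members, and turned or moved by over 1.5 times the fitted value of 32.

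**Figure D2:**
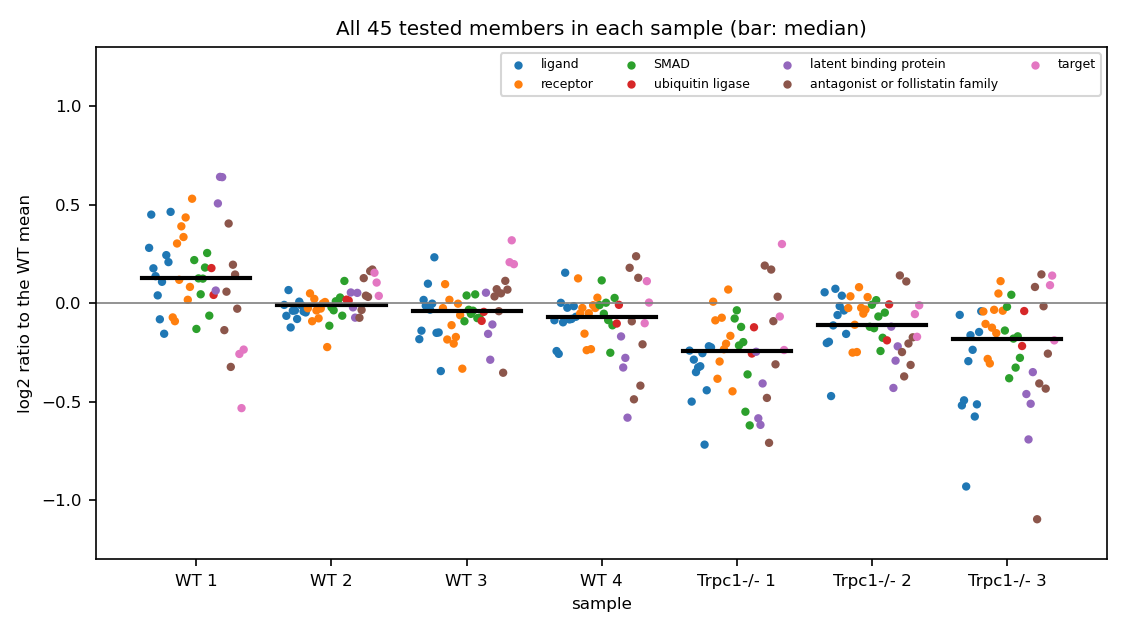
Log2 ratio of each of the 45 tested members to its WT mean (vertical axis) in each sample, with 1 point per gene coloured by role and a bar at the median. The medians of the Trpc1-/- samples, from -0.24 to -0.11, are below those of all WT samples, and WT replicate 1 is the highest at 0.13.

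Among the ligands, all 11 that were tested had a fitted log2 fold change below 0, with a median of -0.24. Before adjustment, 3 of the 11 were under 0.05 and lower, against 5.49% of all genes. The median ran from -0.32 to -0.20 when 1 sample was left out. Without WT replicate 1, 9 of the 11 were below 0, and Tgfb1 and Inhbb were just above it. Bmp2, an inducer of bone and cartilage formation (chr2:133552159-133562885), had the smallest unadjusted P of the members. It was counted at 11.3, 9.45, 10.2 and 10.3 CPM in WT and at 8.08, 7.42 and 5.40 CPM in Trpc1-/-. The groups did not overlap, and Trpc1-/- replicate 3 was the lowest. The log2 fold change of Bmp2 was -0.57 (SE 0.15, adjusted P = 0.395). With DESeq2 its adjusted P was 0.0502 at default settings. In fits added after seeing the data it was 0.0495 with DESeq2 filtering at 0.05 and 0.0299 with DESeq2 without WT replicate 1, and over the other alternatives it ran up to 0.932.

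Tgfb3, a TGF-beta isoform of skeletal tissue, was counted at 28.6, 26.5, 25.6 and 21.2 CPM in WT and at 20.8, 22.1 and 17.99 CPM in Trpc1-/-. WT replicate 4 lay among the Trpc1-/- samples, so the groups overlapped (log2 fold change -0.33, SE 0.12, adjusted P = 0.455). Tgfb2, the other isoform with an unadjusted P under 0.05, was counted at 32.9, 23.0, 21.8 and 20.3 CPM in WT and at 17.02, 20.9 and 16.8 CPM in Trpc1-/-. WT replicate 1 was far above the rest, and the log2 fold change of Tgfb2 went from -0.42 (SE 0.18, adjusted P = 0.492) to -0.26 without it.

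Tgfb1 had the most counts per kilobase of exon among the ligands, at 10.8 CPM per kilobase in WT. Its levels were 65.4, 53.5, 47.4 and 50.7 CPM in WT and 45.6, 55.9 and 51.7 CPM in Trpc1-/-, with full overlap apart from WT replicate 1. The log2 fold change of Tgfb1 was -0.09 (SE 0.13, adjusted P = 0.805) and became 0.01 without WT replicate 1. It was -0.22 both within the lower sample number series and with the series as a covariate. The other tested ligands, Bmp4, Bmp5, Bmp6, Bmp7, Gdf10, Inhba and Inhbb, had log2 fold changes between -0.41 for Bmp7 and -0.13 for Bmp5. When 1 sample was left out, Bmp7 ran from -0.66 to -0.28 and Bmp5 from -0.25 to -0.04. Of these, Bmp4 alone had groups that did not overlap.

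**Figure D3:**
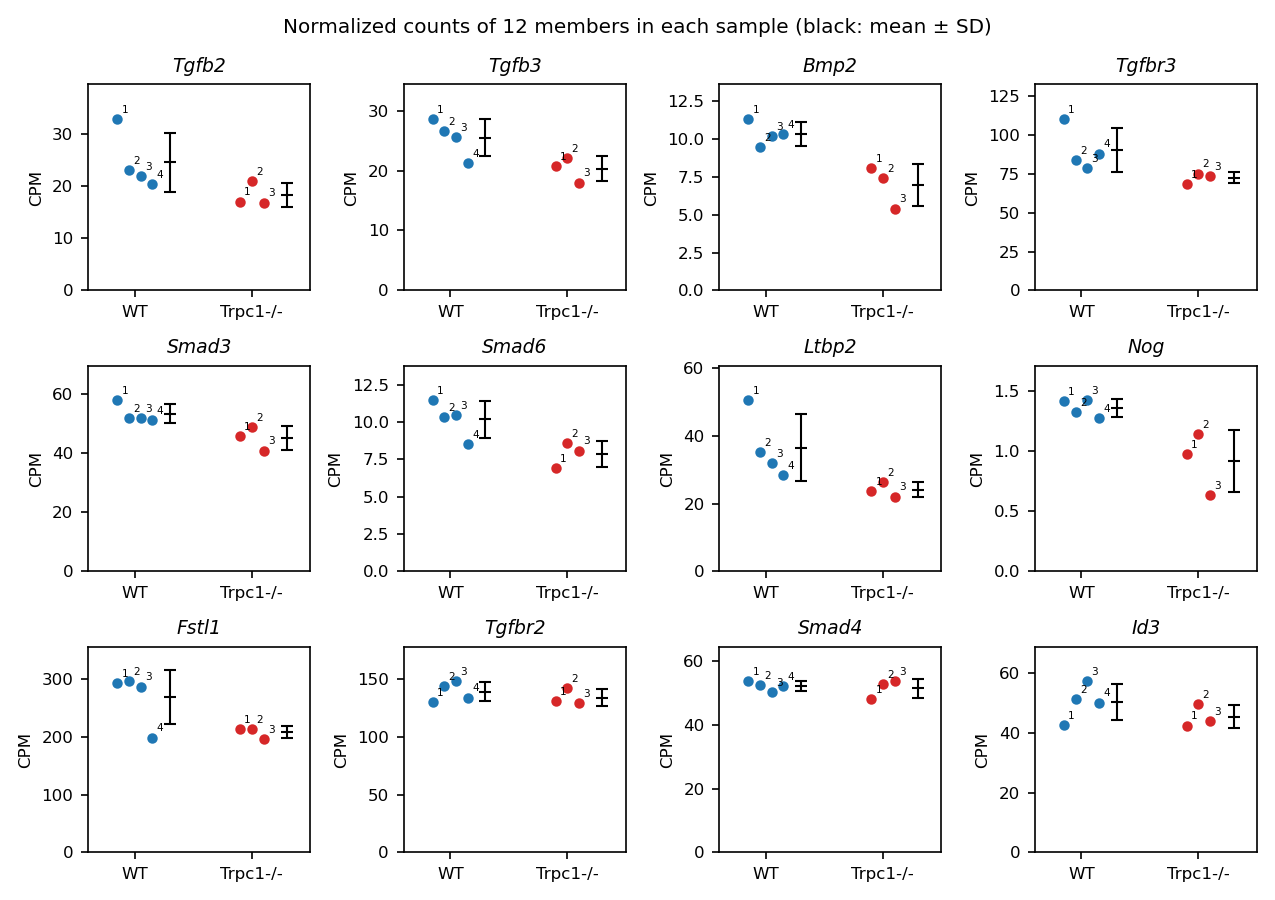
Normalized counts (CPM, vertical axes from 0) of 12 members in each WT and Trpc1-/- sample, numbered by replicate, with the mean and SD in black. Bmp2, Smad3, Ltbp2, Tgfbr3 and Nog do not overlap between groups, whereas Tgfbr2, Smad4 and Id3 do.

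The receptors stood nearer to 0 than the ligands, with a median log2 fold change of -0.11 over 10 genes, of which 9 were below 0. The median was -0.01 without WT replicate 1, where 6 were below 0, -0.04 without Trpc1-/- replicate 1 and -0.17 without WT replicate 3. Tgfbr3, the coreceptor betaglycan that presents TGF-beta to the signaling receptors, was counted at 110.2, 83.9, 78.6 and 87.9 CPM in WT and at 68.5, 75.1 and 73.4 CPM in Trpc1-/-. Its groups did not overlap, and WT replicate 1 was the highest. The log2 fold change of Tgfbr3 was -0.32 (SE 0.12, adjusted P = 0.475) and -0.21 without that sample. Bmpr1a, a type I BMP receptor, was counted at 61.2, 57.2, 57.0 and 50.6 CPM in WT and at 45.9, 52.2 and 45.6 CPM in Trpc1-/-. Trpc1-/- replicate 2 exceeded WT replicate 4, and the log2 fold change was -0.24 (SE 0.09, adjusted P = 0.461).

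The kinases that carry the TGF-beta signal had similar levels in both groups. Tgfbr2, the type II receptor and the receptor with the most counts per kilobase (16.97 CPM per kilobase in WT), was counted at 130.1, 143.5, 148.3 and 133.7 CPM in WT and at 130.5, 142.1 and 128.9 CPM in Trpc1-/-. These ranges were nearly the same, with a log2 fold change of -0.05 (SE 0.08, adjusted P = 0.822). Tgfbr1, the type I receptor, had a log2 fold change of -0.02. The remaining receptors ranged from -0.17 for Acvr2b to 0.02 for Acvrl1, an endothelial type I receptor whose value was -0.03 when scaled by library size alone. Without WT replicate 1, Bmpr2, Acvr1 and Acvr2b stood at 0.05, 0.01 and 0.03.

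All 8 SMADs had a fitted log2 fold change below 0, with a median of -0.19, but the size differed by gene. When 1 sample was left out the median ran from -0.24 to -0.13, and 7 of 8 were below 0 without WT replicate 4 and without Trpc1-/- replicate 1. Smad3, which carries the TGF-beta signal and restrains chondrocyte maturation, was counted at 58.1, 51.9, 52.0 and 51.3 CPM in WT and at 45.9, 48.7 and 40.9 CPM in Trpc1-/-. The groups did not overlap (log2 fold change -0.24, SE 0.08, adjusted P = 0.453). Without WT replicate 1, the highest sample, the log2 fold change of Smad3 was -0.197. Smad6, an inhibitor that BMP signaling itself induces, was counted at 11.5, 10.3, 10.5 and 8.51 CPM in WT and at 6.92, 8.56 and 8.08 CPM in Trpc1-/-. Trpc1-/- replicate 2 was just above WT replicate 4, and the log2 fold change of Smad6 was -0.38 (SE 0.13, adjusted P = 0.442).

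Smad4, the shared partner, had the most counts per kilobase of the SMADs (14.0 CPM per kilobase in WT). Its levels were 53.7, 52.4, 50.1 and 52.1 CPM in WT and 47.9, 52.6 and 53.6 CPM in Trpc1-/-, which overlapped, with a log2 fold change of -0.02 (SE 0.07, adjusted P = 0.922). Smad2 was also near 0, at -0.02, so Smad3 and its close relative Smad2 had unlike values, a difference that was not tested. Smad1, Smad5, Smad7 and Smad9 lay between -0.30 and -0.12, and of these Smad7 alone had groups that did not overlap. When 1 sample was left out, Smad7 ran from -0.278 to -0.151.

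Promoters are shown for 3 members with a small unadjusted P, to let their sequence be read beside their levels. RefSeq promoters on GRCm38.p6, from 250 bases before to 50 after the start, were matched for 33 of the 46 members. Capitals mark the SMAD box CAGAC, the palindromic SMAD element GTCTAGAC and the GC-rich BMP element GGCGCC, searched on both strands. Of 32851 promoters, 49.6% held CAGAC or its complement, 0.213% held GTCTAGAC and 11.9% held GGCGCC. The Smad6 promoter held GTCTAGAC 1 time, the Ltbp2 promoter held the SMAD box 3 times, and the Smad3 promoter held 0 of the 3 motifs. A match describes letters and does not show that a SMAD binds there. The sequences run 5′ to 3′ on the minus strand, at chr9:64022010-64022309 for Smad6, chr12:84876442-84876741 for Ltbp2 and chr9:63757945-63758244 for Smad3.
Smad6: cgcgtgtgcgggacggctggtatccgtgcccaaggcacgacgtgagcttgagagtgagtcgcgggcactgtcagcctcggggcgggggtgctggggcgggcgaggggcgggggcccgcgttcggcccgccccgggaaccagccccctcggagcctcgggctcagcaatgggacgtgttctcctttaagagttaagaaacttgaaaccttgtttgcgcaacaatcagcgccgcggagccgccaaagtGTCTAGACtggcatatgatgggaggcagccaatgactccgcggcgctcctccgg
Ltbp2: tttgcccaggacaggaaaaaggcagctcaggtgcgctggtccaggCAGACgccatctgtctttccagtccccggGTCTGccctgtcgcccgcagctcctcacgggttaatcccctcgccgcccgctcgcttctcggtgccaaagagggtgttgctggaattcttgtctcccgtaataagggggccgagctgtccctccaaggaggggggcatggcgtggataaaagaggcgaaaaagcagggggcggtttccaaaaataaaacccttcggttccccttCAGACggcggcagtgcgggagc
Smad3: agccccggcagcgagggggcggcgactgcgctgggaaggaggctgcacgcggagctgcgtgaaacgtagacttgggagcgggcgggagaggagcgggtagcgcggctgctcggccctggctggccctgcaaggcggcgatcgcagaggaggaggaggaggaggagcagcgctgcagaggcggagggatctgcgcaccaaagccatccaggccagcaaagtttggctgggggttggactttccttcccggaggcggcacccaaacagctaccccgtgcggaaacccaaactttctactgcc

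Of the ubiquitin ligases, which mark receptors and SMADs for degradation, Smurf1 was counted at 25.5, 22.9, 21.2 and 21.02 CPM in WT and at 18.9, 19.8 and 19.4 CPM in Trpc1-/-. The groups did not overlap (log2 fold change -0.22, SE 0.09, adjusted P = 0.469). Without WT replicate 1, the log2 fold change of Smurf1 was -0.165. Smurf2 had more counts per kilobase than Smurf1 in WT (9.95 against 3.58 CPM per kilobase). It was counted at 63.1, 61.8, 59.4 and 60.9 CPM in WT and at 56.3, 61.0 and 59.6 CPM in Trpc1-/-, which overlapped (log2 fold change -0.06, SE 0.06, adjusted P = 0.750).

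The latent binding proteins had the lowest median of the classes, at -0.45, and all 4 were below 0. That median ran from -0.59 to -0.26 when 1 sample was left out, the latter without WT replicate 1. Ltbp2, a matrix protein of elastic fibres (chr12:84783212-84876532), was counted at 50.6, 35.1, 32.0 and 28.4 CPM in WT and at 23.7, 26.4 and 22.0 CPM in Trpc1-/-. The groups did not overlap, with WT replicate 1 well above the other WT samples. The log2 fold change of Ltbp2 was -0.60 (SE 0.19, adjusted P = 0.426), and -0.40 without WT replicate 1 (adjusted P = 0.139). With DESeq2 and without that sample, a fit added after seeing the data, the adjusted P of Ltbp2 was 0.0127. Ltbp1, which anchors latent TGF-beta and had the most counts per kilobase of the class (8.64 CPM per kilobase in WT), was counted at 96.3, 95.6, 95.6 and 81.9 CPM in WT and at 77.6, 84.8 and 66.9 CPM in Trpc1-/-. WT replicate 4 lay among the Trpc1-/- samples (log2 fold change -0.27, SE 0.11, adjusted P = 0.475). Ltbp3 and Ltbp4 stood at -0.52 and -0.39, and at -0.26 and -0.14 without WT replicate 1, where both were highest. Over the alternatives they ran down to -0.795 and -0.699.

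Antagonists that bind BMPs outside the cell did not share a direction. Nog, which encodes noggin, was counted at 1.41, 1.32, 1.43 and 1.27 CPM in WT and at 0.972, 1.14 and 0.634 CPM in Trpc1-/-. The groups did not overlap, at a level close to the filter (log2 fold change -0.57, SE 0.23, adjusted P = 0.483). Without Trpc1-/- replicate 3, the lowest sample, it was -0.36. Chrd, which encodes chordin, was counted at 6.66, 5.50, 4.89 and 3.59 CPM in WT and at 3.08, 3.89 and 3.79 CPM in Trpc1-/-, and the groups overlapped through WT replicate 4 (log2 fold change -0.52, SE 0.22, adjusted P = 0.490). Without WT replicate 1, the log2 fold change of Chrd was -0.383. Grem1 and Chrdl1, also BMP antagonists, both had a log2 fold change of 0.13 and stayed above 0 under each scaling. Without WT replicate 1 they stood at 0.09 and 0.03.

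Fstl1, a secreted follistatin-like glycoprotein, had the most counts per kilobase of all members (54.8 CPM per kilobase in WT). It was counted at 293.6, 297.1, 287.1 and 198.6 CPM in WT and at 214.0, 213.6 and 196.5 CPM in Trpc1-/-. WT replicate 4 sat with the Trpc1-/- samples, so the groups overlapped (log2 fold change -0.37, SE 0.15, adjusted P = 0.485). Fst and Fstl3, which bind activins, stood at -0.11 and -0.14, and ran from -0.22 to -0.05 and from -0.22 to -0.07 when 1 sample was left out.

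The Id genes, direct targets of BMP signaling, had a median log2 fold change near 0, at -0.02. It was -0.11 without WT replicate 1, where all 3 were below 0, but 0.03 without WT replicate 2 and 0.05 without WT replicate 3, where 1 of 3 was below 0. Id3 had the most counts per kilobase of the 3 (28.1 CPM per kilobase in WT). It was counted at 42.5, 51.3, 57.4 and 50.1 CPM in WT and at 42.4, 49.7 and 43.9 CPM in Trpc1-/-, with overlap through WT replicate 1 (log2 fold change -0.15, SE 0.11, adjusted P = 0.633). When 1 sample was left out Id3 ran from -0.23 to -0.08. Id1 stood at -0.02, and at -0.11 without WT replicate 1. Id2 stood at 0.07, at -0.002 when scaled by library size alone and at -0.08 without WT replicate 1. Over the alternatives Id2 ran up to 0.279.

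The members were spread over 19 chromosomes. On chromosome 9, which carries Trpc1, lay 5 of them, Bmp5, Tgfbr2, Acvr2b, Smad3 and Smad6, the nearest 19.8 Mb from Trpc1.

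Of 84 other genes of the pathway in the table, 61 were tested and 0 were called by edgeR. DESeq2 called 4 of them, Sost, Atoh8, Wwp2 and Usp15, against 1.79% of all genes. The list was chosen with earlier results of these data known, so its counts are not independent of those results. Without adjustment, 13 of the 61 were under 0.05 and lower in Trpc1-/-, against 5.49% of all genes, and 1 was higher. The fitted log2 fold change was below 0 for 46 and above 0 for 15, with a median of -0.13. For 12 of the 61 every Trpc1-/- sample lay below every WT sample, against 6.42% of all genes, and for 3 above, against 7.15%. The SMAD partners and regulators, the largest class, split into 11 below and 10 above 0. All 10 tested genes of ligand processing and activation were below 0, with a median of -0.31. They include Furin, a protease that cleaves the TGF-beta precursor (log2 fold change -0.30, SE 0.09, adjusted P = 0.408), its relative Pcsk5 (-0.49, SE 0.14, adjusted P = 0.403) and Lrrc32, which holds latent TGF-beta at the cell surface (-0.42, SE 0.11, adjusted P = 0.395).

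Sost, the osteocyte gene for sclerostin, had the smallest P of these genes. It was counted at 26.8, 37.5, 43.0 and 37.0 CPM in WT and at 22.2, 23.0 and 19.4 CPM in Trpc1-/-, without overlap (log2 fold change -0.75, SE 0.16, adjusted P = 0.381), and edgeR called it when WT replicate 1 was left out. Atoh8, a BMP target, stood at -0.56 (SE 0.15, adjusted P = 0.395), and Ccn2, a TGF-beta target, at -0.42 (SE 0.13, adjusted P = 0.410). Wwp2, a ubiquitin ligase active in cartilage, stood at -0.29 (SE 0.09, adjusted P = 0.408). The other pathway gene that was under 0.05 and higher was Usp15, a deubiquitinase that acts on the TGF-beta pathway, at 0.26 (SE 0.08, adjusted P = 0.408), with all 3 Trpc1-/- samples above all WT samples.

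The tissue held several cell types, and the levels of their markers are given beside those of the members. No marker had an adjusted P under 0.05 with edgeR. DESeq2 called 5 of 16 erythroid markers and 1 of 8 adipocyte markers, against 1.79% of all genes. In bulk RNA, fewer cells of a type and less RNA per cell cannot be told apart. Of the chondrocyte markers, 14 of 14 had a log2 fold change below 0. Their summed level was 6640, 6788, 6825 and 6486 CPM in WT and 3658, 6902 and 3912 CPM in Trpc1-/-, so Trpc1-/- replicate 2 was at the WT level and the other 2 were far below. Col2a1, the most abundant, showed the same split, at 1453, 3266 and 1695 CPM in Trpc1-/-. Replicate 2 was also the Trpc1-/- sample in which most pathway members were highest.

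Erythroid markers went the other way, with 16 of 16 above 0 and a summed level of 20210, 33512, 37238 and 30423 CPM in WT and 47797, 42976 and 58374 CPM in Trpc1-/-, without overlap. Hbb-bs, a beta globin, led that list. Adipocyte markers were above 0 in 8 of 8, led by Cfd, with sums of 386.2, 299.1, 272.4 and 239.5 CPM in WT and 386.8, 364.0 and 451.6 CPM in Trpc1-/-. These sums overlapped between groups through WT replicate 1 alone. Synovial fibroblast and tendon markers, led by Prg4, were below 0 in 6 of 9, with sums of 896.2, 678.8, 566.8 and 663.9 CPM in WT and 483.4, 551.6 and 565.3 CPM in Trpc1-/-. Endothelial markers, in which Stab2 was the most abundant, were below 0 in 9 of 10, with sums of 335.9, 340.0, 340.5 and 342.1 CPM in WT and 309.7, 328.5 and 318.5 CPM in Trpc1-/-. Osteoblast and osteocyte markers were below 0 in 9 of 10, the exception being the most abundant, Spp1, at 0.06. Their sums were 1860, 2788, 2979 and 2552 CPM in WT and 2227, 2716 and 2029 CPM in Trpc1-/-.

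Skeletal muscle markers, led by Myh4, varied most and were above 0 in 8 of 8, with sums of 1223, 232.4, 178.7 and 59.4 CPM in WT and 364.4, 617.4 and 1008 CPM in Trpc1-/-. Neutrophil markers, led by S100a9, were above 0 in 10 of 10. They summed to 5469 CPM in WT replicate 1 and to 13680, 15683 and 17289 CPM in WT replicates 2 to 4. In Trpc1-/- they summed to 15953, 12766 and 16773 CPM. WT replicates 2 to 4 overlapped the Trpc1-/- samples, so the shared direction rests on WT replicate 1. B cell markers were above 0 in 8 of 9, the exception being the most abundant, Ebf1, at -0.04, and their sums ran from 259.7 to 371.3 CPM. Macrophage and osteoclast markers, led by Vcam1, were above 0 in 6 of 10, with sums from 827.3 to 1431 CPM. Megakaryocyte and platelet markers, led by Ppbp, were above 0 in 5 of 7, with sums from 587.8 to 974.8 CPM. The sums of these 5 lists overlapped between groups. For skeletal muscle the overlap was through WT replicate 1 alone. WT replicates 2 to 4 all lay below the 3 Trpc1-/- samples, so the size of that difference depends on WT replicate 1. None of the 111 markers found in the table was at 0 in any sample. The part of these cell types in the lower levels of the pathway members was not tested.

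**Figure D4:**
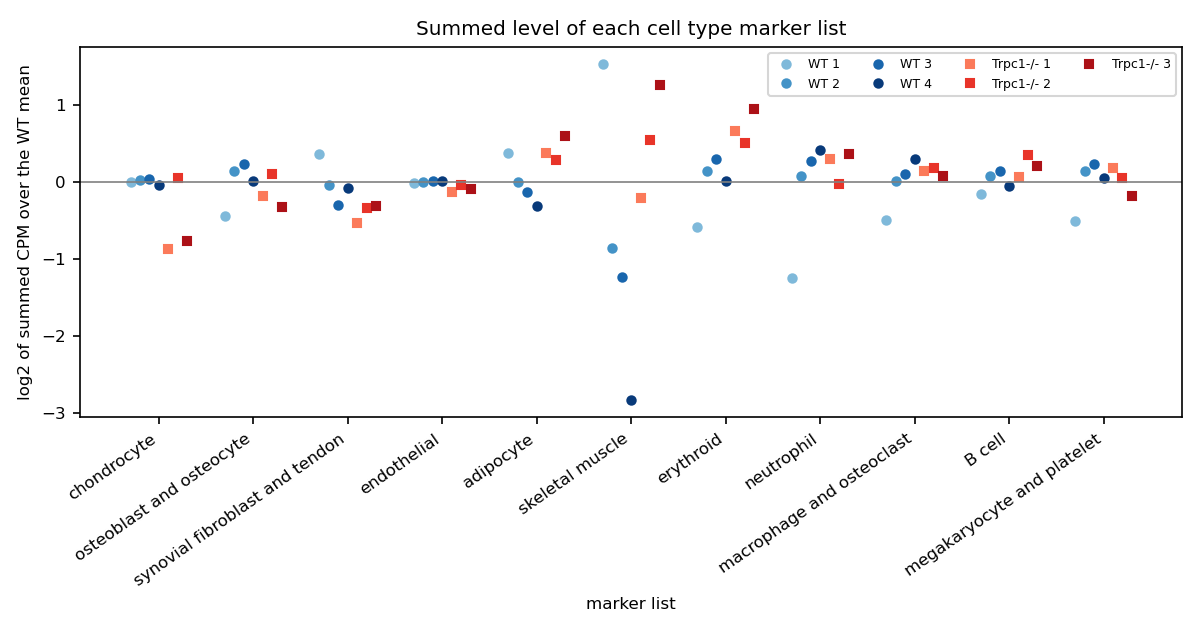
Summed CPM of each cell type marker list relative to its WT mean (log2, vertical axis), with 1 point per sample, circles for WT and squares for Trpc1-/-. Chondrocyte markers are low in Trpc1-/- replicates 1 and 3 but not 2, erythroid markers are higher in all 3 Trpc1-/- samples, and WT replicate 1 is low for neutrophil and high for muscle markers.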

How the data were processed

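Expected counts per gene were made by the authors and deposited as whole numbers. Per the submitters' processing notes and the study's methods, reads of stranded, rRNA-depleted total RNA were trimmed with cutadapt 2.5, aligned to GRCm38 with HISAT2 2.1.0 and quantified with StringTie 2.0.3, so a count is an estimate from transcript coverage. Groups were taken from the sample labels (4 WT, 3 Trpc1-/-); the methods give these numbers the other way round.

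After the filter on low counts (above 1 CPM, 2 samples or more), genotype was tested in edgeR 4.0.16 (quasi-likelihood, TMM scaling, R 4.3.3), with Benjamini-Hochberg adjustment over all 16429 genes and a threshold of 0.05. The code was tested on simulated data. DESeq2 1.42.0 with default settings, limma-voom (limma 3.58.1), other scalings and filters, a replicate block, the sample number series and leaving out each sample were alternatives. CPM use TMM-scaled totals. Exon lengths and positions are from GENCODE on GRCm38.

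The members and lists were chosen with earlier results of these data known. Values in full are given for members with an unadjusted P under 0.05 and, in each role, the member with the most counts per kilobase. For up to 8 other pathway genes with the smallest P, the fold change, SE and adjusted P are given. Of these, Sost alone has its sample values printed.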

Additional observations from a re-analysis of the deposited data

Results flagged for a closer look

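Among 45 members and 11 marker sums, 5 had a WT sample far from the other WT samples (Dixon's ratio above its 95% critical value for 4 samples). Chance flags about 1 in 20 such groups. WT replicate 1 was high for Smad3, at 58.1 CPM, for Smad7, at 20.0 CPM, and for the summed skeletal muscle markers, at 1220 CPM. WT replicate 4 was low for Ltbp1, at 81.9 CPM, and for Fstl1, at 199 CPM. The Trpc1-/- group, with 3 samples, was not tested in this way.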

How the results depend on the processing

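With edgeR, 0 members passed the threshold under every scaling, filter, covariate and sample left out, and limma-voom and DESeq2 with default settings also called 0. Over all genes, edgeR called 0, DESeq2 294 and limma-voom 1, and leaving out 1 sample gave 0 to 52, the latter without WT replicate 1. Of the other pathway genes DESeq2 called 4, and leaving out 1 sample gave 0 to 1.

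Added after seeing the data, DESeq2 with its independent filtering at 0.05 called 303 of 16417 genes and 4 other pathway genes. It called 1 of 45 members, Bmp2 (adjusted P = 0.0495, against 0.0502 at the default). DESeq2 without WT replicate 1, also added, called 892 of 16237 genes, 10 other pathway genes and 2 of 45 members, Bmp2 and Ltbp2. A fit that left out both WT replicate 1 and Trpc1-/- replicate 2 was also run and is not used, because Trpc1-/- replicate 2 had been picked for its marker levels.

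The number of members with an unadjusted P under 0.05 was 13, and 2 to 14 when 1 sample was left out. The median log2 fold change of the members was -0.16, and -0.247 to -0.147 when 1 sample was left out. It was -0.285 with the lower sample number series alone (WT replicates 1 and 2 and all Trpc1-/- samples) and -0.284 with the series as a covariate. The cause was not tested. Samples with the same replicate number are different mice. Their deviations from the group means had a mean correlation of -0.255 over 3 pairs, with 0 samples closest to their own replicate number. With the replicate block, all genes called, members called and other pathway genes called were each 0, and 8 members had an unadjusted P under 0.05 and were lower, against 4.18% of all genes in that fit. The block fit held 16303 genes, as many as the fit without WT replicate 4, a sample with no Trpc1-/- sample of its number. Without WT replicate 4 and with no block, 13 members were under 0.05 and lower, against 6.59% of all genes.

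Directions turned for 12 members, of which Acvr2b, Inhbb and Acvr1 stood as low as -0.17, -0.16 and -0.15 with all samples. Without a filter, Tgfbr1, Acvr2a, Smad2 and Smad4 stood at 0.006, 0.003, 0.002 and 0.009. With the replicate block, Tgfbr1 and Smad2 stood at 0.020 and 0.016, and without WT replicate 4 alone, with no block, at 0.020 and 0.014. With the lower sample number series alone, Tgfbr1, Smad2 and Id1 stood at 0.028, 0.053 and 0.024, and with the number series as a covariate at 0.029, 0.054 and 0.024. By library size alone, Acvrl1 and Id2 stood at -0.034 and -0.002. With DESeq2 and without WT replicate 1, Tgfb1, Inhbb, Bmpr2, Acvr1, Acvr2a, Acvr2b and Id2 stood at 0.016, 0.013, 0.055, 0.016, 0.003, 0.034 and -0.077. Leaving out 1 sample gave -0.165 to 0.013 for Tgfb1, -0.272 to 0.008 for Inhbb, -0.048 to 0.020 for Tgfbr1, -0.152 to 0.052 for Bmpr2, -0.225 to 0.014 for Acvr1, -0.002 to 0.052 for Acvrl1, -0.099 to 0.041 for Acvr2a, -0.278 to 0.031 for Acvr2b, -0.068 to 0.014 for Smad2, -0.052 to 0.028 for Smad4, -0.106 to 0.048 for Id1 and -0.081 to 0.181 for Id2.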
